A study of Mus musculus with 2 samples.

Results

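The miR-29 genes are 4 microRNA (miRNA) genes, Mir29a, Mir29b-1, Mir29b-2 and Mir29c, chosen by their symbols in GENCODE M21 from the 2202 miRNA genes of the files. They were measured by microRNA-seq, which sequences small RNA, in adrenal glands taken from B6CASTF1/J males aged 14 days, for which the labels name no treatment. B6CASTF1/J is an F1 hybrid strain, and the counts do not separate the parental alleles. The labels give 1 group of 2 libraries, biological replicates 2 and 1. Each came from its own biosample, described with 3 males, under a common donor record, and the labels do not state whether animals were pooled. The p-values below set the difference between these libraries against counting error alone, and that difference may be technical. There is no contrast between conditions, and the data answer at what level each gene stood in the young gland and how far the libraries differed.

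A miRNA is cut from a hairpin RNA, whose 5′ side and 3′ side can each give a mature arm, called 5p and 3p. The mature arm guides an Argonaute protein to mRNAs that pair with its seed, bases 2 to 8. miR-29 is known in many tissues for repressing genes of the extracellular matrix, among them collagens, elastin and fibrillin, and for its low level in fibrosis. The adrenal gland has a collagen-rich capsule around a cortex that makes steroids and a medulla that makes catecholamines.

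The family is held together by its 3p arm, so the mature arms are given first, in RNA letters 5′ to 3′ from RefSeq (GRCm38.p6, the mm10 assembly), with the seed in capitals. All 4 genes matched that table, and their hairpins there were identical to those of GENCODE M21. The 3 distinct 3p arms were:
miR-29a-3p: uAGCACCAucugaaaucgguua
miR-29b-3p: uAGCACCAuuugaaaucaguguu
miR-29c-3p: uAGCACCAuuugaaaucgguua

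The seed AGCACCA was the same in all 4 genes, and no other mature miRNA of the RefSeq table had it. Counted from 1 at the 5′ end, miR-29a-3p and miR-29c-3p differed at 1 of 22 bases, written with the base of miR-29a-3p first, C10U. Between miR-29c-3p and miR-29b-3p, 3 of the 22 bases compared differed, with the base of miR-29c-3p first: G18A, U21G and A22U. These 2 arms were identical over their first 17 bases. With a shorter seed of bases 2 to 7, the only other gene was Mir3102, at 73.6 CPM in replicate 2 and 100.2 CPM in replicate 1, where CPM is the count scaled to a common total of miRNA counts in each library.

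No seed, again in capitals, was shared among the 5p arms:
miR-29a-5p: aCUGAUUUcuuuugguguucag
miR-29b-1-5p: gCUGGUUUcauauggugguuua
miR-29b-2-5p: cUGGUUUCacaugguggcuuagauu
miR-29c-5p: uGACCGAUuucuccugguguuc

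The seed of miR-29b-1-5p also stands at the start of miR-29b-2-5p, but there it begins at the first base, not the second. Of these 5p seeds only that of miR-29b-2-5p was also the seed of another mature miRNA, miR-6338, whose gene Mir6338 had 0 counts in both libraries. That count of 0 allows a level of up to 0.866 CPM in replicate 2 and 0.992 CPM in replicate 1, the level of 3 counts.

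The genes lie in 2 pairs. Mir29a (chr6:31062660-31062747) and Mir29b-1 (chr6:31063023-31063093) lie on the minus strand of chromosome 6 with 275 bases between them, and Mir29b-1 overlaps the lincRNA Gm27019 by 2 bases. Mir29b-2 (chr1:195037040-195037120) and Mir29c (chr1:195037547-195037634) lie on the plus strand of chromosome 1 with 426 bases between them. Both lie wholly in exonic sequence of the non-coding A330023F24Rik and opposite a UTR of Cd46, a complement regulator encoded on the minus strand. The chromosome 6 hairpins are shown with their mature arms in capitals, as an example of how the arms sit in the precursor that was counted:
Mir29a: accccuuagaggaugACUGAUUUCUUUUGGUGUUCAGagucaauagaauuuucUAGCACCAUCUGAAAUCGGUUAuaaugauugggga
Mir29b-1: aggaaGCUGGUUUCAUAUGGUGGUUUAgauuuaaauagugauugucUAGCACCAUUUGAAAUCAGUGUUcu

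A count belongs to a whole hairpin, so the arms cannot be told apart in these values. The miR-29b-3p arm is encoded by both Mir29b-1 and Mir29b-2, and the longest stretch the hairpins share, shown because a read inside it has no single gene of origin, is 25 bases long: ucuagcaccauuugaaaucaguguu. Each of the other arms was found in 1 miRNA hairpin. The longest stretch that Mir29a shares with another member is 14 bases, with Mir29c, and Mir29c shares 22 bases with Mir29b-1. The files count a read with several map positions in a summary row and for no gene, so a read of the miR-29b-3p arm alone is not in the counts of either gene.

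**Figure D1:**
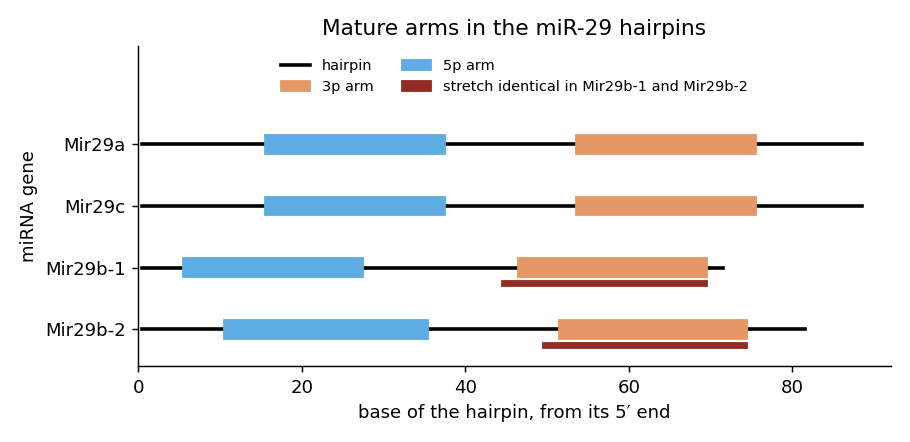
Map of the 4 miR-29 hairpins, with the base of the hairpin from its 5′ end on the x axis. Blue and orange boxes are the 5p and 3p arms, and the dark bar marks the 25 bases that are identical in Mir29b-1 and Mir29b-2 and cover the whole 3p arm.

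All 4 genes were detected, which here means 2 CPM or more in both libraries, as were 364 of the 2202 miRNA genes. Mir29a carried most of the family's counts and Mir29c most of the rest. The sum of the 4 genes was 1473 CPM in replicate 2 and 1580 CPM in replicate 1, a mean of 1526 ± 75.8 CPM (SD, n = 2, as for all means here). It took 0.147% of miRNA counts in replicate 2 (exact Clopper-Pearson interval 0.143 to 0.151) and 0.158% in replicate 1 (0.154 to 0.162). All intervals are at 95% and express the counting error alone, because they are binomial and leave out variation between animals and libraries. Reads copied from 1 molecule by PCR are counted as separate ones, so the intervals may be too narrow even for that error. Levels are compared between genes as CPM because a miRNA read spans the whole short RNA, and CPM per 100 bases of hairpin gave the same order of the 4 genes.

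Mir29a, of the chromosome 6 pair, had 4275 counts in replicate 2 and 3548 in replicate 1. Its level was 1234 CPM in replicate 2 and 1173 CPM in replicate 1, with a mean of 1203 ± 43.0 CPM. The libraries lay close together for this gene, with a coefficient of variation (SD over mean) of 3.57%, against a median of 15.9% over the 189 miRNA genes of 100 CPM or more. Mir29a ranked 69th of all miRNA genes and above 81.0% of the detected ones. It made up 83.8% of the family's counts in replicate 2 and 74.2% in replicate 1.

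Mir29c, of the chromosome 1 pair, had 776 counts in replicate 2 and 1190 in replicate 1. Its level was 224 CPM in replicate 2 and 393 CPM in replicate 1, with a mean of 309 ± 120 CPM and a coefficient of variation of 38.8%. It stood below Mir29a in both libraries with no overlap, ranked 132nd of all genes and above 63.7% of the detected ones. It made up 15.2% of the family's counts in replicate 2 and 24.9% in replicate 1.

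Mir29b-1, whose 3p arm is the same as that of Mir29b-2, had 28 counts in replicate 2 and 19 in replicate 1. Its level was 8.08 CPM in replicate 2 and 6.28 CPM in replicate 1, with a mean of 7.18 ± 1.27 CPM. Mir29b-2 had 24 counts in replicate 2 and 22 in replicate 1, at 6.93 CPM in replicate 2 and 7.27 CPM in replicate 1, with a mean of 7.10 ± 0.245 CPM. The values of these genes overlapped, and both stood below Mir29c in both libraries. Mir29a and Mir29c, and then Mir29c and the miR-29b genes, differed in counted level beyond the spread of the libraries. Mir29b-1 and Mir29b-2 did not. Reads of the miR-29b-3p arm alone are in the counts of neither miR-29b gene. The low place of these genes is therefore one of assigned counts, and does not give their RNA level. The miR-29b genes together reached 15.01 CPM in replicate 2 and 13.56 CPM in replicate 1.

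**Figure D2:**
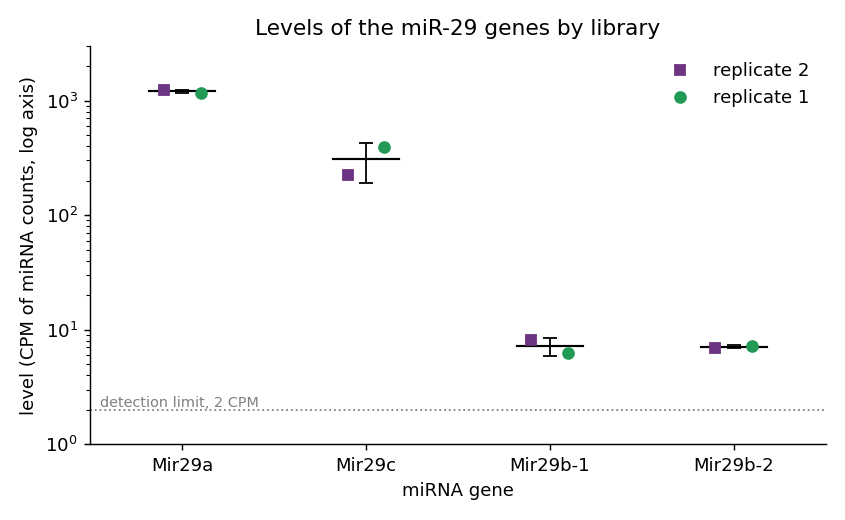
Level of each miR-29 gene in CPM of miRNA counts, on a log axis, with replicate 2 as squares and replicate 1 as circles. Black lines are means of the 2 libraries, bars are SD and the dotted line is the detection limit of 2 CPM. Mir29a lies near 1203 CPM, Mir29c near 309 CPM and both miR-29b genes near 7 CPM.

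**Figure D3:**
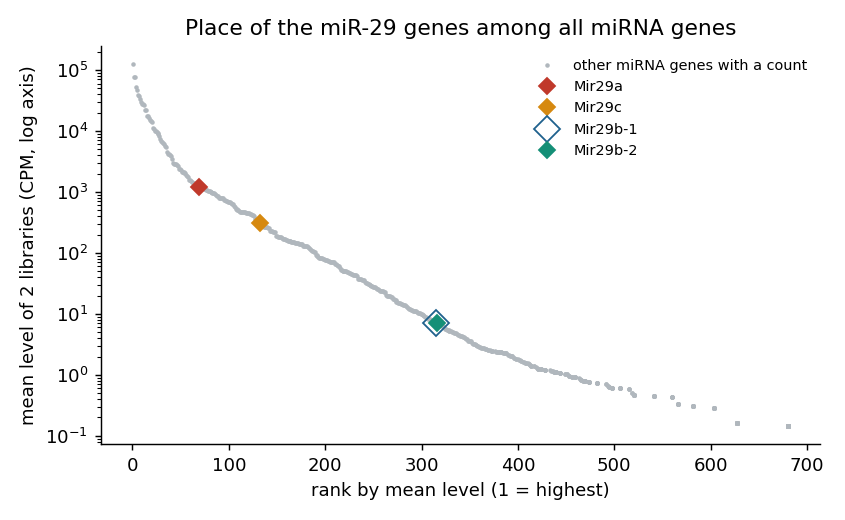
Mean level of every miRNA gene with a count, in CPM on a log axis, by rank. The miR-29 genes are the diamonds, at ranks 69, 132, 315 and 316, and the open diamond of Mir29b-1 surrounds that of Mir29b-2.

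Within each pair, which lies within a short stretch of 1 strand, the counts of the partners were far apart. Reads of the miR-29b-3p arm alone are left out of the miR-29b genes by the counting rule. The ratios to these genes are therefore of counts assigned to a gene and not of RNA level. Mir29a had 153 times the counts of Mir29b-1 in replicate 2 (exact interval 106 to 230) and 187 times in replicate 1 (119 to 310.5). Mir29c had 32.3 times the counts of Mir29b-2 in replicate 2 (21.6 to 50.8) and 54.1 times in replicate 1 (35.6 to 86.6). The count ratio of Mir29b-1 to Mir29b-2 was 1.17 in replicate 2, with an interval of 0.652 to 2.103, and 0.864 in replicate 1, with 0.442 to 1.67, so at these counts a difference between the miR-29b genes was not detectable. The reads that map to several places, 2497097 in replicate 2 and 1972020 in replicate 1, are 489 and 413 times as many as all miR-29 counts of those libraries. How many of them are miR-29b-3p reads is not recorded in the values used, and their part in the low counts of the miR-29b genes was not tested.

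Sharing an arm set Mir29b-1 and Mir29b-2 beside genes of other families. Of 1018 miRNA genes with a mature arm in RefSeq, 119 (11.7%) had a hairpin holding an arm found in more than 1 miRNA gene. Among the 327 of these 1018 that were detected, 55 (16.8%) did, against 2 of the 4 miR-29 genes, all detected. In the miR-29 family such genes held 1.02% of the counts in replicate 2 and 0.858% in replicate 1. Among the 11 genes named let-7, regulators of developmental timing, 6 were such genes and held 2.99% and 2.36% of that family's counts in replicates 2 and 1. Mir30c-1 and Mir30c-2 held 0.990% and 1.51% of the 6 miR-30 genes' counts, and Mir26a-1 and Mir26a-2 held 0.133% and 0.140% of the 3 miR-26 genes' counts. The 119 such genes among those 1018 together held 1.46% of miRNA counts in replicate 2 and 1.34% in replicate 1. These shares follow in part from the counting itself, since reads of a shared arm are counted for no gene, so they say nothing of how much RNA the miR-29b genes gave.

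The miR-29 sum was also small beside the sums of those families. All of these sums leave out reads of arms shared between genes, so the folds compare counts assigned to a gene and not whole families. The let-7 genes had 131 times the miR-29 counts in replicate 2 and 125 times in replicate 1, the miR-30 genes 23.5 and 17.2 times, and the miR-26 genes 27.1 and 10.5 times. The sums did not overlap in either library. No test was made, since p = 0.5 is the smallest value that an exact two-sided sign-flip test over 2 libraries allows. The part of the counts held by the leading gene was 83.8% and 74.2% for Mir29a in replicates 2 and 1. It was 36.8% and 41.1% for Mirlet7g, 36.5% and 33.7% for Mir30e, and 99.9% in both libraries for Mir26b. Reads of shared arms, such as those of Mir26a-1 with Mir26a-2 and of Mir29b-1 with Mir29b-2, are missing here too. These parts therefore do not give the make-up of each family's RNA.

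The libraries were compared gene by gene with an exact two-sided binomial test on counts, with Benjamini-Hochberg adjustment over the 413 miRNA genes with 10 or more counts in both libraries together. It compares these libraries, not conditions, and counts of genes are read against the 55.4% of tested genes called in either direction (28.8% higher and 26.6% lower in replicate 2). All 4 miR-29 genes passed the count minimum. In replicate 2, 1 was called higher and 1 lower, and the other 2 did not pass, which is near that background. The median log2 ratio of the 4 genes, replicate 2 over replicate 1, was 0.001, against 0.03 over all genes tested.

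Mir29c was the member called lower: its level in replicate 2 was 0.569 times that in replicate 1 (exact interval 0.519 to 0.624), a log2 ratio of -0.81 with an adjusted p of 2.5e-34 in the exact binomial test. The call and its direction held under each other normalization, filter and count column tried. Among the 189 genes of 100 CPM or more, 36 had a larger ratio in either direction. Mir29a in replicate 2 was at 1.05 times its level in replicate 1 (1.01 to 1.10), a log2 ratio of 0.073 with an exact adjusted p of 0.048, and 160 of those 189 genes had a larger ratio. That call was lost under TMM normalization (exact adjusted p = 0.24) and without the count minimum (0.084), and the log2 ratio turned to -0.063 with unstranded counts, in which the median of all genes was -0.14. Mir29b-1 had a ratio of 1.29 (0.693 to 2.44) and Mir29b-2 of 0.952 (0.511 to 1.78), and neither passed, with exact adjusted p of 0.57 and 0.93.

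The balance of Mir29a and Mir29c also differed between the libraries, a comparison that needs no library total and was chosen after these values were seen. The count ratio of Mir29a to Mir29c was 5.51 in replicate 2, with an interval of 5.10 to 5.96, against 2.98 in replicate 1, with an interval of 2.79 to 3.19. The ratio in replicate 2 was 1.85 times that in replicate 1 (1.67 to 2.05). The sum of the chromosome 1 pair, 231 CPM in replicate 2 and 401 CPM in replicate 1, was 97.0% and 98.2% Mir29c, and that of the chromosome 6 pair, 1242 CPM and 1179 CPM, was 99.3% and 99.5% Mir29a. The pair sums therefore restate these genes and are no separate measure of each locus.

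**Figure D4:**
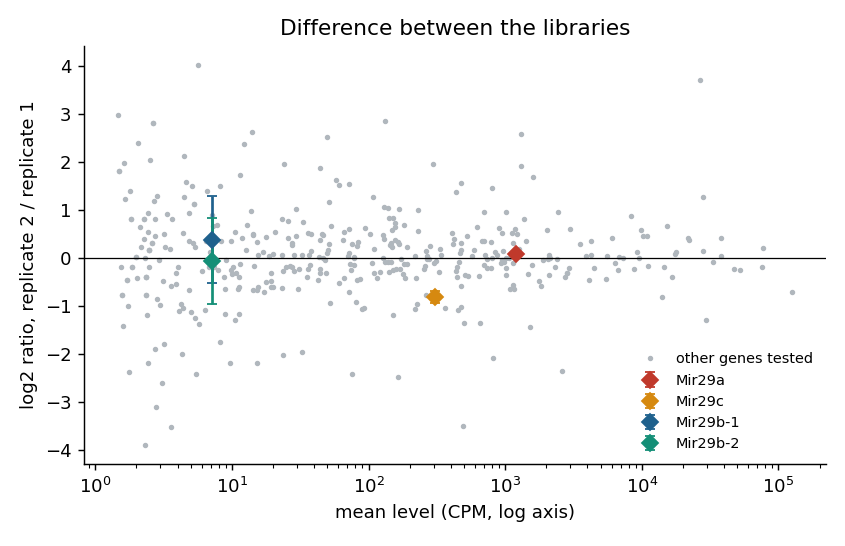
Log2 ratio of replicate 2 over replicate 1 against mean level in CPM on a log axis, for the 413 miRNA genes tested. Coloured diamonds are the miR-29 genes with exact 95% intervals, which cover counting error only: Mir29c lies at -0.81, Mir29a at 0.073, and the intervals of the miR-29b genes, which lie at the same level, include 0.

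Markers of several cell types also differed between these libraries. The endothelial Mir126a was at 94732 CPM in replicate 2 and 155646 CPM in replicate 1. The 3 erythroid markers summed to 19202 CPM in replicate 2 and 43959 CPM in replicate 1, with 0 called higher and 2 lower in replicate 2. Most of that sum was Mir451a, at 17126 and 41828 CPM, whereas Mir144 was at 2053 and 2093 CPM and was not called. The 4 white blood cell markers summed to 1710 and 3466 CPM in replicates 2 and 1, with 1 higher and 3 lower. The 6 mesenchymal markers summed to 45553 and 53199 CPM in replicates 2 and 1, with 1 higher and 2 lower of the 5 tested. The hepatocyte miRNA Mir122 was at 49474 CPM in replicate 2 and 3786 CPM in replicate 1, and the 6 kidney and epithelial markers summed to 1828 and 853 CPM, with 5 higher and 1 lower. Their part in the ratio of Mir29c was not tested, and in bulk tissue fewer cells of a type and less RNA per cell cannot be told apart. The 3 neuroendocrine markers, which mark the medulla, were all detected and summed to 34207 and 31053 CPM in replicates 2 and 1, with 2 higher and 0 lower. No defining miRNA of the cortex was listed. The 5 striated muscle markers summed to 9.52 and 6.28 CPM, with Mir1a-1, Mir133a-1 and Mir133a-2 at 0 counts in both libraries and 0 of 1 tested called. The hairpins of Mir1a-1 and Mir1a-2 share 28 bases and those of Mir133a-1 and Mir133a-2 share 31, so reads inside those stretches are counted for no gene and the low sum does not show that muscle miRNAs were low.

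Other miRNAs known to act on matrix or TGF-beta genes were present over a wide range of levels, and 5 of the 26 listed had a higher mean level than Mir29a. Of the 26, 22 were detected and tested, of which 11 were higher and 7 lower in replicate 2 and 4 did not pass. Their median log2 ratio was 0.12, against 0.03 over all genes tested, and 81.8% were called, against the background of 55.4%. That background includes many genes of low count, where the exact test can call only large ratios, so these shares are not matched for level. Whether the listed genes were called more often than miRNA genes of like level was not tested. Mir143 of smooth muscle led the list at 43537 CPM in replicate 2 and 51310 CPM in replicate 1. Mir30e was at 12631 and 9182 CPM, Mir30a at 11714 and 8518 CPM, and Mir21a, known for promoting fibrosis, at 11784 and 7910 CPM in replicates 2 and 1. Mir143 was thus lower in replicate 2, at 0.849 times its level in replicate 1 (0.842 to 0.855), and Mir21a higher, at 1.49 times (1.47 to 1.51). Of the 4 listed genes that were not tested, 3 had 0 counts in both libraries. The other, Mir199a-1, shares 27 bases of its hairpin with Mir199a-2, and 6 of the 26 listed genes hold an arm that RefSeq and the hairpins place in more than 1 gene, so the counts of these genes and of the Mir133a pair leave out such reads.

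The miRNA genes closest in level to each member were found by the distance between their log2(CPM + 1) values over the 2 libraries. For Mir29a these were Mir674 at 1348 CPM in replicate 2 and 1194 CPM in replicate 1, Mir425 at 1107 and 1183 CPM, and Mir92-1 at 1269 and 1022 CPM. For Mir29c they were Mir155 at 236 and 483 CPM, Mir339 at 193 and 332 CPM, and Mir381 at 296 and 361 CPM. For Mir29b-1 they were Mir5130, n-TSaga9 and Mir5122, and for Mir29b-2 they were Mir3058, Mir365-1 and Mir6240, all between 5.62 and 8.95 CPM. Distances were 0.131 to 0.203 for Mir29a, 0.305 to 0.420 for Mir29c and at most 0.199 for the miR-29b genes. With 2 libraries such likeness is a description of level only, and a like direction is built into the choice.

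Sense and unstranded counts of the members were nearly the same. On the opposite strand, Mir29b-2 had 1 count in replicate 2, and the other members had 0 counts in both libraries, which allows up to 0.866 CPM in replicate 2 and 0.992 CPM in replicate 1.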

How the data were processed

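Small RNA libraries from the adrenal gland of 14-day-old male mice were analysed as 1 group of 2. The authors deposited unnormalized read counts for each miRNA gene, made with the mm10 assembly and annotation M21 per the file headers of the deposited notes. No source used here names the aligner or the counting tool. Each file has 4 summary rows, which name no gene and stayed out of totals, and 3 count columns, of which the sense column was used. Sense miRNA counts were 3464837 (40.9% of 8479789 reads) in replicate 2 and 3024662 (42.2% of 7170915) in replicate 1, so 1 count was 0.289 and 0.331 CPM. Reads mapping to several places were 29.4% and 27.5%, and unmapped reads 23.0% and 23.5%.

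CPM, SD, exact binomial tests (Benjamini-Hochberg threshold 0.05), exact conditional intervals and sequence searches were computed with Python 3.11.15, NumPy 2.4.6, pandas 2.3.3 and SciPy 1.17.1, and figures with matplotlib 3.10.9. The test was tried on simulated counts with counting error only, which leave out variation between libraries. Alternative normalizations came from R 4.3.3 with edgeR 4.0.16 (TMM) and DESeq2 1.42.0 (size factors). No genome sequence was used, so arms were searched in GENCODE M21 transcripts only. Named genes are the members, genes sharing their seed, the 3 nearest in level to each, the 4 most abundant of the matrix list, the let-7, miR-30 and miR-26 sums, marker genes and overlapping genes. Members and lists were chosen with earlier results of these data known.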

Additional observations from a re-analysis of the deposited data

Results flagged for a closer look

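Reads that no comparison uses are given as values, with no control samples to set them against. In replicate 2, 29.4% of all reads mapped to several places, and in replicate 1, 27.5% did. Reads in no miRNA gene were 6.65% in replicate 2 and 6.79% in replicate 1. With 2 libraries of 1 group, no search for a sample far from the others or for a difference between groups was possible.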

How the results depend on the processing

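Unstranded counts leave 794418 reads of replicate 2 and 902374 of replicate 1 as ambiguous and so shrink the totals. With them the mean sum of the miR-29 genes was 2081 CPM, Mir29a 1636, Mir29c 426, Mir29b-1 9.72 and Mir29b-2 9.86 CPM. With all reads of the file as denominator these were 634, 499.5, 129, 2.98 and 2.95 CPM. Of these shifts only that of Mir29c with unstranded counts stayed within 1 SD. TMM and DESeq2 size factors moved none of these 5 levels by more than 1 SD. The log2 ratio of Mir29a was 0.046 under TMM, 0.073 without the count minimum and -0.063 with unstranded counts, none of them called, and 0.076 and called with DESeq2 size factors (adjusted p = 0.039, exact binomial test). The cause was not tested beyond the change of totals and of the number of genes tested. At a limit of 10 CPM in both libraries 2 of the 4 genes were detected. Genes called between the libraries numbered 213 to 231 under the alternatives, with 74 higher and 139 lower for unstranded counts against 119 and 110; on the matrix list that split was 9 and 9 against 11 and 7. Counts of 19 to 28 reads limit the miR-29b genes. No paired analysis was possible because there is 1 group.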
